A study of Cervus nippon with 40 samples.

Results

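The miRNAs miR-124a and miR-128 are described here across the organs of Sika Deer (Cervus nippon), with their level in brain at each development stage, their ratio in brain, and their low levels in other organs, adrenal and testes among them. Both were chosen by name, as bta-miR-124a and bta-miR-128, and they are 2 of the 500 miRNA names listed in the 40 small RNA libraries. The prefix bta marks a bovine miRNA, because the reads were matched to known bovine miRNAs. The libraries came from 10 organs of male deer of the Shuangyang breed: brain, adrenal, testes, spleen, liver, lung, kidney, heart, muscle and antler. The deer were juvenile at 1 year, in adolescence at 3 years, adult at 5 years or aged at 10 years. No animal was treated or carried an altered gene, and every library pooled the RNA of 3 animals. The 12 deer gave all organs, so the organs of a stage share their animals. Each organ had 1 library at each stage, and the spread between animals was not measured. The labels name brain without a region.

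A miRNA is a short RNA that binds messenger RNAs and lowers their translation or stability. miR-124 is made mostly by neurons, where it represses genes of non-neuronal cells and of dividing progenitors, such as the splicing repressor PTBP1. miR-128 is made from introns of R3HDM1 and ARPP21, is known as a miRNA of mature neurons, and limits their excitability. In the brain of other mammals both are counted among the enriched miRNAs. The libraries were of whole tissue, so fewer cells of a type and less of a miRNA per cell cannot be told apart.

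The level of a miRNA is given in RPM, its reads for every 1000000 miRNA reads of the library, and reads are the whole reads recovered from these values. The total adds up all listed names, so names with near-identical counts each add to it. The depth was 1159823, 368429, 798863 and 922258 miRNA reads in the juvenile, adolescence, adult and aged brain, within a range of 41866 to 7759033 over the 40 libraries (median 744715). Intervals are exact 95% Poisson intervals unless another is named, and they cover counting error only. A count of 0 reads allows a level of up to 3 reads of the total, which was 71.7 RPM in the smallest library, the aged testes.

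miR-124a was abundant in all 4 brain libraries and scarce everywhere else. In brain it had 66852 reads in the juvenile library, or 57639.8 RPM (57204 to 58078). The adolescence brain had 901 reads, or 2446 RPM (2288 to 2611). The adult brain had 25537 reads, or 31967 RPM (31576 to 32361), and the aged brain had 34225 reads, or 37110.0 RPM (36718 to 37505). The juvenile library was thus the highest and the adolescence library the lowest, far below the other three. The mean over the stages was 32290.5 ± 22779 RPM (SD, n = 4). By level, miR-124a was in place 6 of 178 known miRNAs listed in the juvenile brain, 17 of 124 in adolescence, 7 of 171 in the adult and 3 of 173 in the aged brain.

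miR-128 was listed in all 4 brain libraries too, but with few reads. It had 5 reads in the juvenile brain (4.31 RPM, 1.40 to 10.1), 4 in adolescence (10.9 RPM, 2.96 to 27.8), 5 in the adult (6.26 RPM, 2.03 to 14.6) and 13 in the aged brain (14.1 RPM, 7.51 to 24.1). The mean was 8.88 ± 4.43 RPM (SD, n = 4), and the 27 reads of the 4 libraries together gave 8.31 RPM (5.48 to 12.1). Its place among the known miRNAs was between 90.5 and 117.5. How many of its reads the matching to miRBase kept cannot be seen in values of this kind, so its level and its ratios to miR-124a hold for the reads that were counted. The intervals of the 4 stages overlapped one another. Of the 6 folds between stages, that of juvenile over aged, 0.306 (0.0854 to 0.914), was the one with an interval that left out 1.

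**Figure D1:**
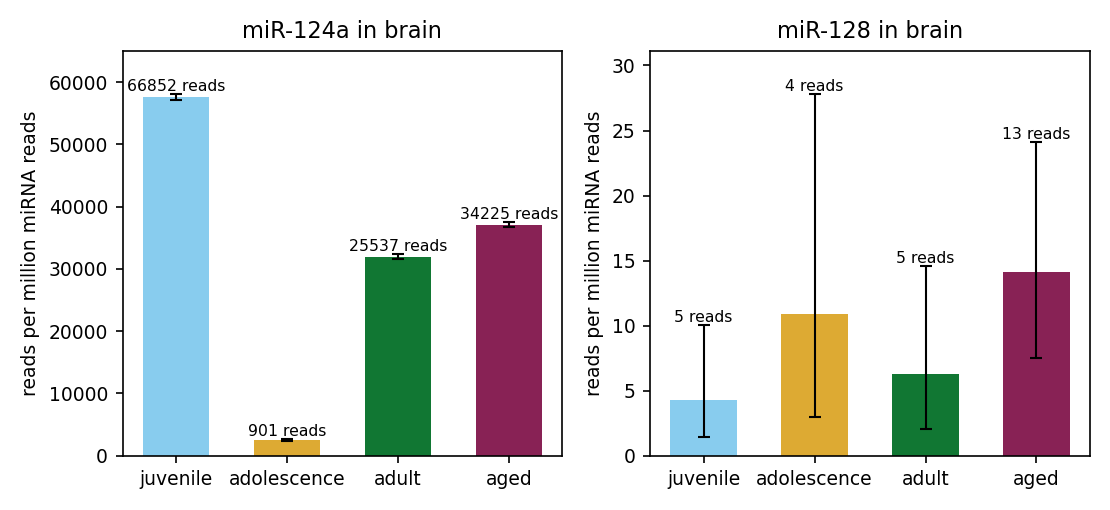
Level of miR-124a (left) and miR-128 (right) in the 4 brain libraries, in RPM, with bars for the value of the single library of each stage, error bars for the exact 95% Poisson interval, and the reads printed above. The axes differ in scale: miR-124a runs from 2446 to 57639.8 RPM with its low point in adolescence, while miR-128 rests on 4 to 13 reads a library and has wide intervals.

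The ratio of miR-124a to miR-128 does not depend on the total of a library. It is a ratio of reads, which need not be a ratio of molecules. There were 13370 reads of miR-124a for each read of miR-128 in the juvenile brain (exact Clopper-Pearson 95% interval 5729 to 41179). The ratio was 225 (87.7 to 829) in the adolescence brain, 5107 (2188 to 15731) in the adult brain and 2633 (1539 to 4945) in the aged brain. Over the 4 libraries together it was 4723 (3246 to 7167). The interval of the adolescence library lay below those of the other three. The adult interval overlapped both others, and the juvenile and aged intervals did not overlap.

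Each pair of brain libraries was compared by a two-sided Fisher's exact test on the reads of both miRNAs, adjusted over 6 pairs by the Benjamini-Hochberg method. These tests compare single libraries, not stages. The ratio in the juvenile library was 59.4 times that in adolescence (exact test, adjusted p = 2.27e-05) and 5.08 times that in the aged library (exact test, adjusted p = 0.00239). The adult ratio was 22.7 times (exact test, adjusted p = 0.000449) and the aged ratio 11.7 times (exact test, adjusted p = 0.00159) that of adolescence. Juvenile and adult differed by 2.62 times (exact test, adjusted p = 0.183) and adult and aged by 1.94 times (exact test, adjusted p = 0.239), which counting error could give. With 4 to 13 reads of miR-128 below the line, the precision of every ratio was set by miR-128.

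**Figure D2:**
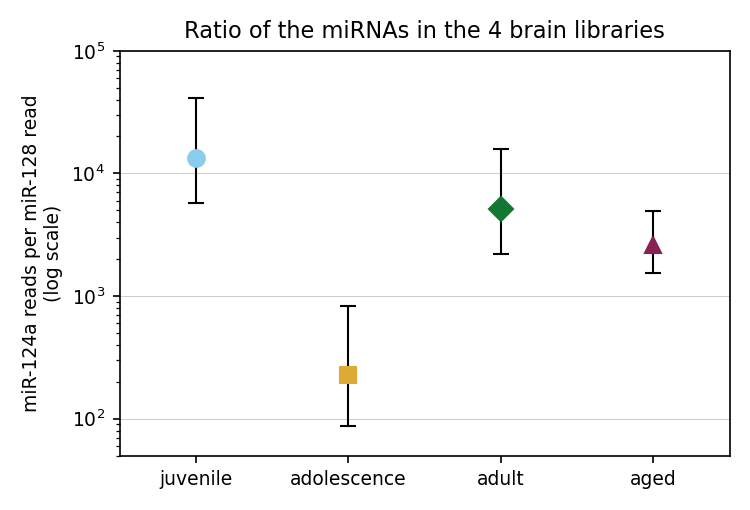
Reads of miR-124a for each read of miR-128 in the brain library of each stage, on a log scale, with exact Clopper-Pearson 95% intervals. The adolescence ratio of 225 lies below the interval of each of the other stages, whose ratios run from 2633 to 13370.

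From the juvenile to the adolescence brain miR-124a was 23.6 times lower (22.1 to 25.2). Of the 125 names with at least 10 reads in 1 of these libraries, 46 (36.8%) were lower and 40 higher by over 2-fold, and 9 names including miR-124a fell as far as it or farther. With TMM scaling, which sets libraries to a common level through the bulk of their miRNAs, 40 were lower and 45 higher. From adolescence to adult it was 13.1 times higher, where 58 of 122 names (47.5%) were higher and 19 lower by over 2-fold, and 11 names including miR-124a rose as far or farther. With TMM scaling this balance turned, to 27 higher and 51 lower. From adult to aged it was 1.16 times higher, while 35 of 126 names (27.8%) were past 2-fold in either direction, 12 of them higher and 23 lower. With TMM scaling miR-124a was 2.12 times higher in this step, with 38 names higher and 3 lower. With 1 library a stage these are differences between libraries and carry no p.

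A few abundant miRNAs took different shares of these libraries. let-7b, a broadly expressed miRNA of differentiated cells, held 8.56% of the juvenile, 41.6% of the adolescence, 29.7% of the adult and 35.3% of the aged brain reads. miR-26a, which is also broadly expressed, held 28.9%, 0.452%, 4.11% and 2.69%. The names miR-3596 and miR-26c, paired with let-7b and miR-26a, had near-identical counts and enter the total as well. The 4 names together held 74.9%, 84.2%, 67.6% and 76.0% of the brain totals, against 1.40% to 1.97% in muscle. Where a read was counted under both names of a pair, the total and the depth count it more than once. RPM is then lower, more so in brain than in muscle, which was not tested. When the RPM was taken over the reads left after removing let-7b, miR-26a and their near-identical names miR-3596 and miR-26c, miR-124a stood at 230001 in the juvenile, 15448 in the adolescence, 98691 in the adult and 154424 in the aged brain. The order of the stages was the same on this scale, which was chosen after the data were seen, and the fold between juvenile and adolescence was 14.9. With TMM scaling that fold was 17.4. The fold between adolescence and adult was more dependent on the scale, at 4.46 with TMM scaling and 6.39 without those names. That between adult and aged was 1.56 without them.

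The adolescence library had the smallest depth of the 4 brain libraries, and other brain-linked miRNAs were not all low there. miR-433, a miRNA of the imprinted DLK1-DIO3 cluster, had 785 RPM in the juvenile, 12686 RPM in the adolescence, 7308 RPM in the adult and 4450 RPM in the aged brain. It was thus highest where miR-124a was lowest. miR-7, a miRNA of neuroendocrine cells, had 81127, 33260, 58015 and 29532 RPM. Its adolescence level was above its aged level. miR-134, also of the DLK1-DIO3 cluster and a regulator of dendritic spines, was lowest in adolescence as miR-124a was, with 66.4, 21.7, 37.6 and 27.1 RPM. The other listed brain-linked names had few reads, and of them miR-153, miR-212, miR-329a, miR-410 and miR-488 had 0 reads in adolescence. A count of 0 there allows up to 8.14 RPM, above every brain level of miR-153, miR-329a, miR-410 and miR-488. For these a lower level in adolescence was thus not detectable. miR-485 was highest there with 5 reads (13.6 RPM), against 1, 2 and 1 reads in the juvenile, adult and aged brain. miR-326 and miR-383 had 1 and 2 reads in adolescence. Among the 24 known miRNAs that were higher in brain than in the other organs in the limma model, 6 had their lowest brain level in adolescence and 17 in the juvenile library, against 70 and 45 of the 124 miRNAs tested. What set the low adolescence level was not tested.

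Across the organs, the question was how far each miRNA was confined to brain. For miR-124a, 127515 of its 127766 reads in the 40 libraries came from brain, and the 251 reads outside brain were 0.196% of the total. It was listed in 26 of the 36 libraries outside brain, with a median of 2.56 RPM and a highest value of 358 RPM in the aged testes. The lowest brain library stood 6.83 times above that value, so brain and the other organs did not overlap. For miR-128, 27 of 30 reads came from brain. The other 3 were 1 read each in adult heart, adult muscle and aged muscle, with a highest value of 0.658 RPM, and here too brain did not overlap the others.

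**Figure D3:**
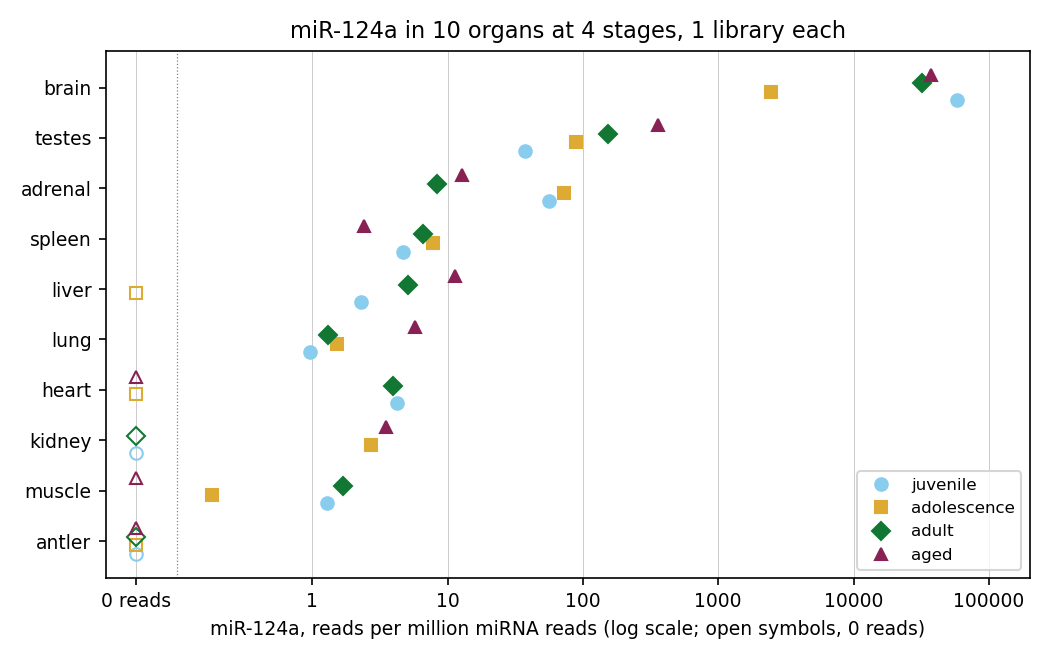
Level of miR-124a in the 40 libraries, in RPM on a log scale, with 1 row for each organ in order of its mean and 1 symbol for each stage; open symbols at the left mark libraries with 0 reads. The brain libraries lie between 2446 and 57639.8 RPM, testes between 37.3 and 358 RPM, adrenal between 8.36 and 72.5 RPM, and the other organs reach 11.4 RPM at most, in the aged liver.

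At each of the 4 stages both miRNAs were highest in brain among the 10 organs. An exact permutation test of the organ labels within stages, on the ranks of the RPM values, gave p = 0.0001 (two-sided) for miR-124a and p = 0.0001 for miR-128, the smallest p that the 10000 arrangements can give. Over all reads of brain against all reads of the other organs, miR-124a was 7691 times higher (6796 to 8740) and miR-128 was 136 times higher (41.9 to 702). The size of this fold for miR-124a depends on muscle, whose deep libraries held 52.3% of the reads outside brain. Without the muscle libraries it was 4020 (3532 to 4597), and the mean of brain was 1357 times the mean of the 9 organ means. At the level of miR-128 in brain, 28 of the 36 other libraries would hold at least 3 reads, so most were deep enough to show a level like that of brain. With TMM scaling the single miR-128 read of adult muscle came to 5.29 RPM, above the 3.31 RPM of the adult brain, and the permutation test then gave p = 0.0003.

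In the limma model over the 40 libraries, with terms for organ and stage, miR-124a was higher in brain than in the mean of the other 9 organs by 12.09 on the log2 scale (SE 0.736, adjusted p = 5.30e-16). This was the largest log2 difference among the 124 known miRNAs that had at least 10 reads in at least 4 libraries. Log2 differences here are of log2(TMM-scaled RPM + 1), which understates the change of low miRNAs, and a miRNA was called at an adjusted p below 0.01 and an absolute log2 difference above 1. Of the 124, 24 (19.4%) were called higher in brain and 26 were called lower. miR-128 did not reach the minimum of reads. With no minimum it was higher in brain by 3.04 on the log2 scale (SE 0.218, adjusted p = 1.12e-13), a value that rests on 30 reads.

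**Figure D4:**
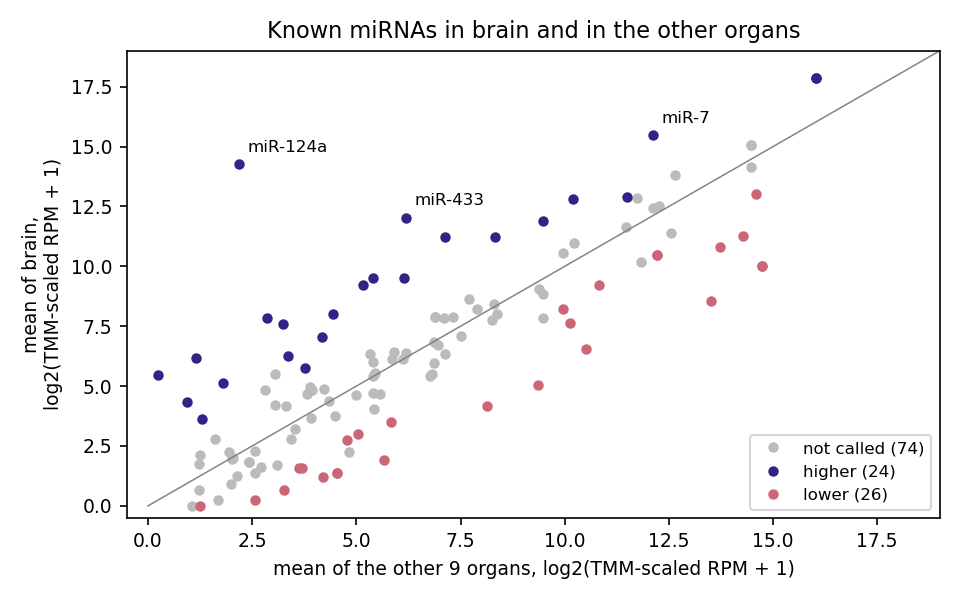
Mean log2(TMM-scaled RPM + 1) of the 4 brain libraries against the mean of the other 9 organs for the 124 known miRNAs tested, with 24 called higher in brain (dark), 26 called lower (red) and 74 not called (grey); the line marks equal levels. miR-124a stands farthest above the line, at 14.27 in brain and 2.19 in the other organs, while miR-7 is abundant on both axes.

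Below brain, the order of the mean levels of miR-124a was testes, adrenal, spleen, liver, lung, heart, kidney, muscle and antler. The means in RPM (SD, n = 4) were 160 ± 141 in testes, 37.4 ± 31.7 in adrenal, 5.40 ± 2.39 in spleen, 4.71 ± 4.95 in liver, 2.39 ± 2.26 in lung, 2.05 ± 2.37 in heart, 1.56 ± 1.83 in kidney and 0.791 ± 0.828 in muscle. The place of muscle in this order rests on the total of reads, as its mean was 10.5 RPM with miR-1 taken out of the total and 21.7 RPM with TMM scaling, on both scales next below adrenal. Testes and adrenal kept their places on these scales. With TMM scaling, however, adrenal at 22.6 ± 21.6 RPM and muscle at 21.7 ± 26.3 RPM stood about level. In antler it was at 0 reads in all 4 libraries, which allows up to 1.64 RPM over the group. On the RPM scale, the ranges of neighbours in this order did not overlap between brain and testes and between adrenal and spleen, and overlapped between all others.

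In the 7 lower organs miR-124a was close to the limit of counting. Spleen had 4, 7, 6 and 1 reads from juvenile to aged, liver 1, 0, 2 and 8, lung 1, 1, 1 and 6, heart 11, 0, 6 and 0, and kidney 0, 1, 0 and 3. Muscle had 10, 1, 11 and 0 reads in its deep libraries. The highest level of these organs was 11.4 RPM in the aged liver. In muscle 91.1% to 92.9% of the reads belonged to miR-1, the main miRNA of striated muscle. With miR-1 taken out of the total, the muscle levels of miR-124a came to 16.0, 2.23, 23.7 and 0 RPM.

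miR-124a in testes had 20 reads in the juvenile library (37.3 RPM, 22.8 to 57.7), 6 in adolescence (89.2 RPM, 32.8 to 194), 15 in the adult (155 RPM, 86.5 to 255) and 15 in the aged library (358 RPM, 201 to 591). The aged level was 9.60 times the juvenile level (4.57 to 19.7). The depth of these libraries went from 535668 in the juvenile to 67231, 97018 and 41866 reads in the later stages, so the higher levels stood in the shallower libraries; the part of depth in this was not tested. Levels of the later stages rest on 6 to 15 reads.

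miR-124a in adrenal had 35 reads in the juvenile (55.9 RPM, 38.9 to 77.7), 62 in the adolescence (72.5 RPM, 55.5 to 92.9), 5 in the adult (8.36 RPM, 2.71 to 19.5) and 12 in the aged library (12.8 RPM, 6.63 to 22.4). The younger stages together were 5.90 times higher than the older ones (3.50 to 10.5). The order was therefore not that of testes. The share of let-7b in adrenal was 4.39% and 2.89% in the younger and 19.7% and 21.1% in the older libraries. With let-7b, miR-26a and their near-identical names taken out of the total, the adrenal levels were 67.7, 83.6, 15.2 and 23.5 RPM, and the younger libraries were still the higher ones.

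**Figure D5:**
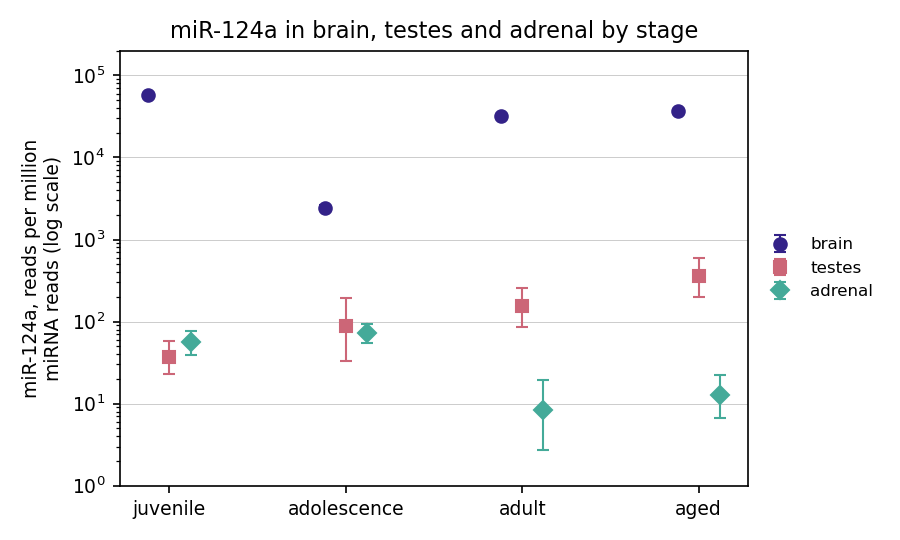
Level of miR-124a in brain, testes and adrenal at each stage, in RPM on a log scale, with exact 95% Poisson intervals (smaller than the symbols in brain). Testes runs from 37.3 RPM in the juvenile to 358 RPM in the aged library, adrenal from 72.5 RPM in adolescence to 8.36 RPM in the adult, and the intervals of these organs overlap at the first and second stages but not at the later ones.

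Testes and adrenal did not differ beyond counting error in the juvenile deer (testes over adrenal 0.668, 0.366 to 1.19) or in adolescence (1.23, 0.435 to 2.84). In the adult deer testes was 18.5 times higher (6.39 to 65.0) and in the aged deer 27.9 times higher (12.2 to 65.3). With TMM scaling, testes was below adrenal at both younger stages, at 0.459 (0.251 to 0.817) and 0.410 (0.145 to 0.943) times its level, and above it at the later ones, by 30.5 times (10.5 to 107) in the adult and with an interval of 8.74 to 46.8 in the aged deer. Brain stood above testes by 1544 times in the juvenile, 27.4 times in adolescence, 207 times in the adult and 104 times in the aged deer. Brain stood above adrenal by 1032, 33.8, 3824 and 2893 times. For both organs the smallest gap to brain was in adolescence, the stage at which brain was lowest. With TMM scaling the gap to testes was 3997, 203, 206 and 309 times, so that adolescence and adult stood level, and the gap to adrenal was 1834, 83.0, 6261 and 6185 times, still smallest in adolescence.

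In the limma model miR-124a was lower in testes than in brain by a log2 difference of 8.85 (SE 0.987, adjusted p = 1.77e-09), and 25 of 124 miRNAs (20.2%) were called higher in brain in that comparison. It was lower in adrenal than in brain by 10.42 (SE 0.987, adjusted p = 2.31e-10), where 12 (9.68%) were called higher in brain. Both comparisons share the brain libraries. Against the mean of the 8 other organs outside brain, miR-124a was higher in testes by 3.64 on the log2 scale (SE 0.740, adjusted p = 0.000250), as 1 of 6 miRNAs called higher there of 124 tested (4.84%). This call was made in each of the 19 alternative fits, with a log2 difference from 1.93 to 5.15.

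For adrenal against the 8 other organs outside brain, miR-124a gave a log2 difference of 1.88 (SE 0.740, adjusted p = 0.0545) and was not called, with 13 of 124 (10.5%) called higher in adrenal. The call depended on the scaling and the test. With total miRNA reads the log2 difference was 2.77 (adjusted p = 0.000748), with edgeR on recovered reads 2.91 (adjusted p = 0.00193) and with DESeq2 2.73 (adjusted p = 0.00132), and each of these passed the limits. TMM scaling divided the muscle levels by factors of 0.0291 to 0.0746 and the adrenal levels by 1.55 to 3.09. On that scale miR-124a ran from 2.70 to 45.7 RPM in adrenal and from 0 to 58.2 RPM in muscle. Without the 4 muscle libraries the log2 difference was 2.20 (adjusted p = 0.0164). Without the adult adrenal library it was 2.84 (adjusted p = 0.00656). Other alternatives lowered it, to 0.77 with a pseudocount of 10 (adjusted p = 0.204), 1.07 without the adolescence stage (adjusted p = 0.406), 1.34 without the adolescence adrenal library (adjusted p = 0.223) and 1.49 without the juvenile one (adjusted p = 0.210).

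miR-128 had 0 reads in all 4 adrenal and all 4 testes libraries. Over the adrenal libraries together this allows up to 0.995 RPM, and over the testes libraries up to 4.04 RPM, both below the 8.31 RPM of brain. In the single testes libraries after the juvenile stage the limits were 44.6, 30.9 and 71.7 RPM, so a level like that of brain was not detectable there.

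A difference between the stages over all organs was not found for miR-124a. Its largest and smallest stage terms in the limma model were 0.758 apart on the log2 scale (adjusted p = 0.724), and 6 of 124 miRNAs (4.84%) were called in that test. The model has 1 set of stage terms for all organs, in which the brain values are 4 of 40.

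Other brain-linked miRNAs, a list of 25 names, were read beside the pair. Of these, 11 were listed in any library and 3 had enough reads for the test. The names not listed include those of miR-9, a miRNA of neural progenitors, and miR-124b, miR-125b, miR-132, miR-137, miR-138 and miR-218. Several of these are known as abundant in the brain of other mammals, as miR-128 is, and whether the matching of reads bears on their counts was not tested. All 3 tested were called higher in brain than in the other 9 organs, with a median log2 difference of 3.34 against -0.03 over all 124 tested. Of those 124, 24 (19.4%) were called higher. The log2 difference was 5.83 (SE 0.652, adjusted p = 1.68e-09) for miR-433, 3.34 (SE 0.543, adjusted p = 2.66e-06) for miR-7 and 3.34 (SE 0.538, adjusted p = 2.42e-06) for miR-134.

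The remaining 8 listed names had between 2 and 30 reads in brain, where miR-128 had 27. miR-212, which is induced with miR-132 by neuronal activity, had 4, 0, 13 and 13 reads in the 4 brain libraries and 3 reads outside, all in adrenal. miR-153, which lies in introns of PTPRN genes of secretory vesicles, had 9 of its 10 reads in brain and the other in adrenal. miR-383 had 17 of 20 and miR-329a 7 of 8 reads in brain, with the others in adrenal. miR-488 had all 6 of its reads in brain. miR-410 had 2 of 5, miR-485 had 9 of 17 and miR-326 had 8 of 17 reads there. From these same libraries the paper reports miR-212, miR-153, miR-383 and miR-329a in brain and adrenal alone, and miR-488 as specific to brain. The list was drawn up with earlier results of these data known, so the reads of these names are no independent support.

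In the adrenal libraries all 3 tested were called higher than in the 8 other organs outside brain (median log2 difference 4.49, against -0.07 over all tested), and none of the 3 was called in testes (0.58, against -0.35). Of all 124 tested, 13 (10.5%) were called higher in adrenal, and 6 were called higher and 16 lower in testes. miR-7 in adrenal had 474297, 590536, 93085 and 98969.8 RPM from juvenile to aged, each above the brain library of that stage, whereas miR-124a was 33.8 to 3824 times lower in adrenal. The limma model did not call miR-7 between brain and adrenal (log2 difference -1.30, adjusted p = 0.176). The younger adrenal libraries were the higher ones for both miR-7 and miR-124a. For miR-433 the order was the other way, with 994, 1225, 4093 and 6084 RPM. In testes 8 of the 11 listed brain-linked names had 0 reads in all 4 libraries. These names had 0 to 6 reads each in adrenal, and at the adrenal level the smaller depth of testes would give at most 1.48 reads of each. For a single name a difference was thus not detectable. Together their 20 adrenal reads would give 4.92 reads in testes, above the 3 reads that a count of 0 allows. The names were grouped by their 0 reads in testes, so the sum carries no test.

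miR-124a is a neuronal miRNA, and miRNAs of oligodendrocytes, the myelin-forming cells, were read as a check of the other cells of brain. miR-338 had 14, 0, 18 and 23 reads and miR-219-3p had 0, 3, 3 and 3 reads in the 4 brain libraries. All 9 reads of miR-219-3p and 55 of the 67 reads of miR-338 came from brain. Neither reached the minimum for the test. miR-338 was at 0 in the adolescence library, where miR-124a was lowest, and miR-219-3p was at 0 in the juvenile library, where miR-124a was highest.

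Markers of other tissues were read in brain as well. All 3 listed names of epithelium, miR-200b, miR-205 and miR-429, had 0 reads in the 4 libraries. The summed level of 7 muscle-linked names ran from 2258 to 4175 RPM, most of it miR-1 and miR-133a, with miR-206, miR-208a, miR-208b and miR-499 at 0. The 5 stroma-linked names ran from 5572 to 28731 RPM and all 4 tested were called lower in brain, as 26 of all 124 were. The 3 liver-linked names ran from 73.3 to 9094 RPM, with the lowest sum in adolescence. Of their 13482 brain reads, 13481 were of miR-192, which was highest in the juvenile kidney at 270874 RPM. miR-194 had 1 read and miR-885 had 0 reads in brain, so the sum is the level of 1 name. The 5 blood-cell-linked names ran from 5754 to 12087 RPM, against 653 to 1041 RPM in adrenal and 633 to 1636 RPM in testes. In the other 7 organs the sum ran from 1086 to 40693 RPM, a range that held that of brain. Of the 27463 reads of these names in brain, 27328 were of miR-486, a miRNA of red blood cells and muscle. miR-486 was called higher in brain than in the other 9 organs by 1.39 on the log2 scale (SE 0.335, adjusted p = 0.000629). miR-142-5p (-2.60) and miR-150 (0.84) were tested and not called, and miR-142-3p was at 0. miR-451, the remaining listed name, had 1 read in the 4 brain libraries and too few reads for the test. Of the 4 muscle-linked names tested, 3 were called lower in brain than in the other 9 organs, as 26 of all 124 were. Against adrenal 1 of the 4, miR-133b, was called higher in brain (log2 difference 4.44, SE 0.680, adjusted p = 2.11e-06). Over all names 12 of 124 (9.68%) were called higher in that comparison. Against testes none of them was called, where 25 of 124 were called higher and 16 lower in brain. The part of other tissues in the levels of miR-124a and miR-128 was not tested.

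Over the 40 libraries, the known miRNAs with the pattern most like that of miR-124a were miR-2366 (r = 0.795), miR-760-3p (r = 0.644), miR-134 (r = 0.643), miR-328 (r = 0.629) and miR-433 (r = 0.610). The measure is Pearson's r of log2(TMM-scaled RPM + 1), a description with no test, in which the libraries share animals within a stage. Over the 36 libraries outside brain r was -0.02 for miR-2366 and between -0.05 and 0.29 for the other four. miR-2366 had 93.0% of its 158 reads in brain, at 11.2, 106, 51.3 and 58.6 RPM. With so few reads outside brain, miR-2366 met the minimum of reads through the brain libraries. Its entry among the names compared, like its r over all libraries, thus rests on brain. Its highest brain level was in adolescence, and the lowest in the juvenile library, opposite to miR-124a.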

How the data were processed

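The authors pooled RNA of 3 deer for each library, sequenced small RNA, removed adapters, short reads and other classes of RNA, then identified known miRNAs with miRBase and predicted others with miRDeep. The labels name a NEBNext kit and the methods a TruSeq kit. The processing notes of the submitters name CASAVA, bcl2fastq 1.8.4 and Bowtie. The deposited values are RPM, reads scaled to 1000000 miRNA reads a library, under a header that says tpm, and miRNAs without a read are not listed. Whole reads were recovered from the value of 1 read, and 7982 of 7982 values lay within 0.01 of a whole number. No sequence is given in these tables.

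Of 337 known names, 305 seen outside antler entered the models, and the antler name miR-148c was taken as miR-2957. A miRNA entered the fit with 10 or more reads in 4 or more libraries. TMM factors came from edgeR 4.0.16, and limma 3.58.1 in R 4.3.3 fitted organ and stage terms to the scaled log2(RPM + 1) with a trended prior variance. A count model was planned for the case that the files held raw counts, and limma was used because they hold RPM. Calls needed a Benjamini-Hochberg adjusted p below 0.01 and an absolute log2 difference above 1. The stage is the replicate number and pairs the libraries, since the organs of a stage came from the same deer; deviations from the organ means correlated with a median r of 0.12 over 180 pairs of the same stage and -0.05 over 540 pairs of different stages. P-values measure the spread between these libraries. Single values were tested by exact permutation, and intervals used scipy 1.17.1. The fit was also run on simulated reads, in which all libraries had 1 composition apart from the changed names. TMM factors of the real libraries ran from 0.0291 to 4.76, so that run did not test the scaling.

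The alternatives were total miRNA reads, DESeq2 1.42.0 size factors and test, edgeR on reads, other minimums and pseudocounts, near-identical names merged, no block, and libraries left out. Merging near-identical names left the depth of the libraries as it was, with both names in it. The text names the pair, every listed brain-linked and oligodendrocyte-linked name, up to 3 names of other lists and the 5 names most like miR-124a; let-7b and miR-26a, and further names of a list, were named after their values were seen. The members and lists were chosen with earlier results of these data known.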

Additional observations from a re-analysis of the deposited data

Results flagged for a closer look

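For each miRNA, the 4 libraries of an organ were looked at for 1 library far from the others, in 12 groups with any spread. For continuous, normally spread values chance puts about 5% of groups past the limit, and 2 were past it. That rate does not hold for counts near 0. A read in 1 library with 0 in the others always gives a gap of the whole range. In lung, miR-124a had 5.76 RPM in the aged library against 0.956 to 1.54 RPM in the others, and the gap was 0.879 of the whole range; this is 6 reads against 1 read in each of the others. In heart, miR-128 had 1 read in the adult library and 0 in the others, so the gap was the whole range (1.0). The brain values of both miRNAs were within the limit.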

How the results depend on the processing

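Of 93 alternative values of miR-124a in the 5 limma comparisons between organs, 89 were on the same side of the limits and 93 kept their sign; the 13 of the stage comparison, which has no sign, stayed short of the threshold. The 4 values on the other side were for adrenal against the 8 other organs outside brain, where it was called with total miRNA reads (log2 2.77), edgeR (2.91), DESeq2 (2.73) and without the adult adrenal library, and leaving out libraries gave 1.07 to 2.90 and a pseudocount of 10 gave 0.77. The log2 difference ran from 10.22 to 12.81 for brain against the other 9 organs, from 9.15 to 11.87 against adrenal and from 7.42 to 9.57 against testes. Without the stage as a block, brain against the other 9 organs stayed at 12.09, and 49 in place of 50 miRNAs were called; the block changed no call of miR-124a. In brain, the fold of miR-124a between juvenile and adolescence was 17.4 with TMM scaling and 14.9 without let-7b, miR-26a and their near-identical names, that between adolescence and adult 4.46 and 6.39, and that between adult and aged 2.12 and 1.56. The likeness to miR-2366 turned to r = -0.0185 without brain. The number of miRNAs called with total miRNA reads was 47 in place of 23 in adrenal (87.2% of them higher, in place of 56.5%) and 46 in place of 22 in testes (82.6% higher, in place of 27.3%), as the median of all miRNAs moved from -0.07 to 0.97 and from -0.35 to 0.93 on the log2 scale. It was 14 in testes with edgeR, 44 for brain against adrenal with DESeq2 in place of 29, and 10 with edgeR, 32 with DESeq2 and 0 with no minimum of reads for stages in place of 6 (0 of 305 by limma, with 49 at an unadjusted p under 0.05). Leaving out libraries gave 13 to 14 calls in testes, 15 to 19 for brain against adrenal and 0 to 3 for stages where these moved by over 1.5 times. The alternatives without muscle and the gaps between single organs with TMM scaling were chosen after seeing the data. The cause of these changes was not tested. One more read of miR-128 in each library would lower the ratios to 11142, 180, 4256 and 2445, inside their intervals. At 4 to 13 reads a step of 1 read always stays inside them, so this is no check of the ratios. Depth limits miR-128 everywhere and miR-124a outside brain.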
